A study of Drosophila melanogaster with 5 samples.

Results

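The glutathione S-transferases (GSTs) of classes D, E, O, S, T and Z and the UDP-glycosyltransferases (UGTs) were followed, cell type by cell type, in nuclei of the Malpighian tubules (MTs), the renal organ of Drosophila. Members were all genes of the expression table whose symbol, mapped from the FlyBase identifier, begins with Gst and one of these class letters or with Ugt and a digit. The rule itself uses no measured value. This gave 70 of 16495 genes, of which 35 were GSTs and 35 were UGTs.

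GSTs couple glutathione to reactive compounds, and UGTs couple a sugar from a UDP-sugar to small lipophilic compounds, so that both kinds of product become more soluble and can be carried out of the cell. In insects both families are known from insecticide and plant toxin metabolism, and the principal cells (PCs) and stellate cells of the MTs are a main site of such clearance. Many members lie in tandem arrays of recent duplicates, and GstD1 is a widely used reporter of the oxidative stress regulator cap-n-collar (cnc).

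Single-nucleus RNA-seq was run on 1 library for each of 5 genotypes, all from female flies. EGT > yki act flies carried esg-GAL4, tub-GAL80TS, UAS-GFP and UAS-yki3SA, an activated Yorkie that makes gut tumors, and their EGT > w1118 control carried the same driver and UAS-GFP without yki3SA. PCts > Pvr act and PCts > Pvr RNAi flies carried CG31272-GAL4 and tub-GAL80TS with UAS-Pvr act, an activated PDGF/VEGF receptor, or with UAS-Pvr RNAi, and their PCts > w1118 control carried this driver alone. The esg driver is active in stem cells of the gut and of the MTs, so yki3SA can be expressed in the MTs as well, while CG31272-GAL4 is a PC driver. Crosses were reared at 18 °C and adults held at 29 °C, for 8 days by the protocol text and 5 days by the sample annotation. Each library pooled 90 pairs of tubules, so animals cannot be told apart, and no difference between genotypes has a replicate check.

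The libraries held 1969 to 9367 nuclei (21371 in all) with medians of 1515.5 to 3889 UMIs, where a UMI is 1 counted RNA molecule. The fewest UMIs in a nucleus was 500 in PCts > Pvr act and 150 to 223 in the other 4 libraries. Levels are mean UMIs per 10,000 UMIs of a nucleus, and a fold is the log2 ratio of 2 means after adding 1. Members were compared where the mean of both libraries reached 0.5, and were called higher or lower at a log2 fold of at least 0.5 in size. Intervals are 95% and cover counting error only. The control libraries, which also differ in driver, gave the sole measure of how far 2 libraries without a transgene of interest differ. Pvr was at 27 UMIs per 10,000 in PCts > Pvr act, and at 4.74 in the library that carries the label PCts > Pvr RNAi, against 4.3 in PCts > w1118. As a mean over all nuclei Pvr was thus not lower in that library, but its log2 pooled ratio was -0.18 (-0.22 to -0.13, 6306 UMIs, against 10506), so the sign turned on the weighting. The library is named by its label alone below, as the RNAi-labelled library. The 2 Pvr comparisons share this control.

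Most annotated clusters of PCts > Pvr act were not those of its control, and some went against their names. PCts > Pvr act had 0 nuclei annotated as main segment PCs and 1 stellate nucleus, and 8996 of its nuclei lay in 5 clusters with the suffix Pvr-act. Of these, the cluster named lower segment PCs 2 (Pvr-act) carried the hemocyte marker Hml at 33.9 UMIs per 10,000 and NimC1 at 5.02, and 616 of its 725 nuclei (85%) had a UMI of one of them. The cluster named RSC (Pvr-act), after renal stem cells (RSCs), had Delta at 0.807 in PCts > Pvr act, against 15.7 in RSC 2 (Pvr-act). Of the 5 PC markers, 4 were called lower in PCts > Pvr act over all nuclei (Uro at 0.36, against 12.6 in PCts > w1118), and 1 of 5 was called lower in EGT > yki act (Uro at 3.19, against 10.4 in EGT > w1118). In all-nuclei values below, a change in the mix of cell types and a change within a cell type cannot be told apart. Across libraries, 53 barcode sequences occurred in more than 1 of them.

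Of the 70 members, Ugt37A1 had no UMI in any nucleus, 9 members had fewer than 10 UMIs over all libraries, and 32 had at least 1000. GstD1, a class D enzyme known to act on DDT, was the member with the highest level in every library over all nuclei, at 8.69 in EGT > yki act, 9.87 in EGT > w1118, 17 in PCts > Pvr act, 9.76 in the RNAi-labelled library and 14.2 UMIs per 10,000 in PCts > w1118. It lies on 3R at 12367817–12369268 (BDGP6, minus strand). GstE12 was at 5.08, 6.24, 1.55, 7.58 and 6.58 in the same order of libraries, and GstE10 at 1.44, 4.76, 0.114, 2.96 and 2.78. Among the UGTs, Ugt35B1 was at 0.554, 4.33, 0.00382, 1.65 and 1.56, Ugt49B1 at 0.774, 1.84, 0.164, 2.62 and 2.60, and Ugt301D1 at 1.60, 1.11, 0.155, 1.53 and 1.47. PCts > Pvr act was thus the library with the most GstD1 and the least of the other 5. The counts come from the 3′ ends of transcripts and are not scaled by transcript length, so these values compare libraries better than genes.

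**Figure D1:**
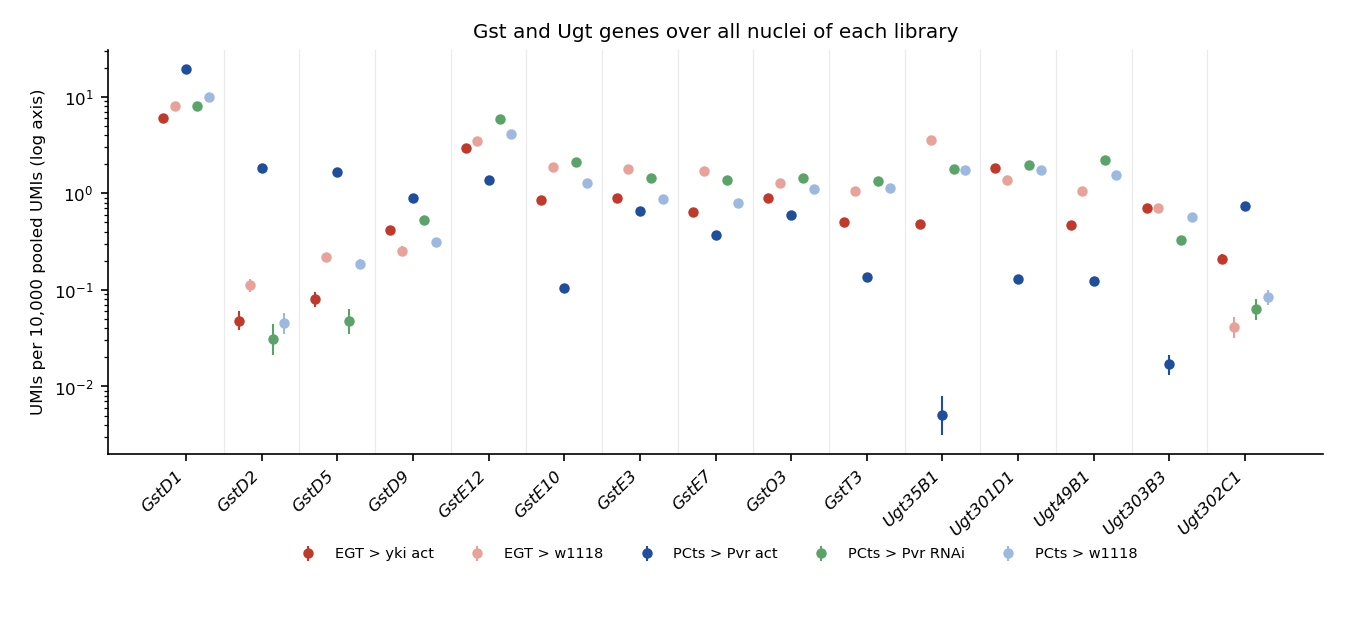
Pooled UMIs per 10,000 UMIs (log axis) of 15 members in the 5 libraries, with exact Poisson 95% bars that cover counting error only. GstD1, GstD2, GstD5 and Ugt302C1 are at their highest in PCts > Pvr act, whereas Ugt35B1, Ugt49B1, Ugt301D1 and GstE10 are at their lowest there.

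Summed over the 35 GSTs, the level was 23.9 UMIs per 10,000 in EGT > yki act, against 32.6 in EGT > w1118, and 28 in PCts > Pvr act and 32.8 in the RNAi-labelled library, against 34.6 in PCts > w1118. The 35 UGTs together were at 5.74 in EGT > yki act, against 11 in EGT > w1118, and at 2.02 in PCts > Pvr act and 9.09 in the RNAi-labelled library, against 9.81 in PCts > w1118. The UGT sum was lower in both libraries with an activated transgene. In EGT > yki act most of that difference was Ugt35B1, without which the other 34 summed to 5.18, against 6.68. As shares of pooled UMIs, GSTs made up 0.162% in EGT > yki act, against 0.233% in EGT > w1118, but 0.314% in PCts > Pvr act and 0.264% in the RNAi-labelled library, against 0.229% in PCts > w1118, so in both Pvr libraries the sign of the GST sum turned on the weighting. UGTs made up 0.0494% in EGT > yki act, against 0.0906% in EGT > w1118, and 0.0177% in PCts > Pvr act and 0.0925% in the RNAi-labelled library, against 0.0882% in PCts > w1118, where the sign turned for the RNAi-labelled library. Within the GSTs of PCts > Pvr act, classes D and E moved apart. GstD genes summed to 21.3 in PCts > Pvr act, against 15.3 in PCts > w1118, and GstE genes to 4.84, against 14.6. The Ugt35 family (6 genes) varied widely between libraries, at 1.10 in EGT > yki act and 5.63 in EGT > w1118, and at 0.115 in PCts > Pvr act, 2.75 in the RNAi-labelled library and 2.79 in PCts > w1118.

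The smaller families were measured in the same way. The omega class GstO genes (3) summed to 1.93 in EGT > yki act, against 2.73 in EGT > w1118, and to 0.82 in PCts > Pvr act and 2.27 in the RNAi-labelled library, against 2.5 in PCts > w1118. The 4 GstT genes summed to 1.38 in EGT > yki act, against 1.72 in EGT > w1118, and to 0.688 in PCts > Pvr act and 2.41 in the RNAi-labelled library, against 1.85 in PCts > w1118. The Ugt302 family (3 genes) was highest in PCts > Pvr act, at 0.963, against 0.566 in PCts > w1118. The 4 Ugt303 genes were at 0.0348 in PCts > Pvr act, against 0.875 in PCts > w1118, but at 0.984 in EGT > yki act, against 0.966 in EGT > w1118. Low levels throughout were those of Ugt36 (4 genes, 0.0993 to 0.379), Ugt37 (8 genes, 0.0407 to 0.504), the zeta class GstZ (2 genes, 0.0864 to 0.29) and the sigma class gene GstS1 (0.0624 to 0.318).

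Members differed in which cells held them. Among MT cell types GstT4, a class T enzyme on X, was highest in stellate cells in the 4 libraries that had them, at 3.98 UMIs per 10,000 in EGT > yki act, 1.78 in EGT > w1118, 1.65 in the RNAi-labelled library and 2.77 in PCts > w1118. In main segment PCs of the same libraries it was between 0.00448 and 0.0116. It also reached the comparison limit in lower ureter PCs. Its log2 folds over PCts > w1118 there were -1.14 in PCts > Pvr act, -0.49 in the RNAi-labelled library and -1.16 in EGT > w1118. Ugt301D1 (2L, 18509560–18513512) was at 4.27 in lower tubule PCs of EGT > yki act, 2.77 in those of EGT > w1118, 3.68 in those of the RNAi-labelled library and 3.03 in those of PCts > w1118, and at 0.161 to 0.464 in initial and transitional PCs. Ugt305A1 was at 0.911 in lower ureter PCs of EGT > yki act, 0.202 in those of EGT > w1118, 0.0159 in those of PCts > Pvr act, 0.177 in those of the RNAi-labelled library and 0.192 in those of PCts > w1118. These levels rested on few UMIs, as Ugt305A1 had 5 to 16 in each whole library and 57 in all. GstO3, of the omega class, was also highest in the lower ureter PCs of 4 libraries, at 5.41 in EGT > w1118, 1.22 in PCts > Pvr act, 3.74 in the RNAi-labelled library and 4.3 in PCts > w1118, but at 0.844 in those of EGT > yki act. These are descriptions, since the clusters were built from all genes.

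GstD1 differed from segment to segment of the tubule. GstD1 in PCts > w1118 was at 3.71 in initial and transitional PCs, 6.68 in main segment PCs, 11.9 in lower tubule PCs, 21.5 in PCs of the upper ureter and 20.3 in those of the lower ureter. In EGT > w1118 the same 5 types were at 2.26, 5.56, 10.1, 13.8 and 18.2. Among these 5, GstD1 was thus lowest at the initial end and highest in the ureter in both controls. In principal cells-like nuclei GstD1 was higher still, at 22.9 in PCts > w1118 and 22.4 in EGT > w1118. The upper and lower ureter PCs were shallower, with medians of 953.5 and 1118.5 UMIs in EGT > w1118, against 5514 to 11479.5 in the rest. In PCts > w1118 they had 2806 and 1499, against 4891 to 10432. Pooled over tracheal cells and visceral muscle, GstD1 was at 13.2 in EGT > w1118 and 15.5 in PCts > w1118. The part of depth in the order of GstD1 levels was not tested. GstE12, GstE10 and Ugt49B1 were also high in RSCs, with GstE12 at 8.43 and GstE10 at 7.61 in RSCs of EGT > w1118, against 3.09 and 0.898 in main segment PCs of that library. GstD1 was not low there, at 10.8 in RSCs of EGT > w1118 and 19.9 in those of PCts > w1118. The RSC nuclei were shallow, with a median of 548 UMIs, against 8377 to 14606 in main segment PCs over the 4 libraries that had them. Uro, a PC marker that encodes urate oxidase, was at 12.2 in these RSCs and 11.4 in tracheal cells of EGT > w1118, against 16.5 in main segment PCs. GstE12 was at 10.5 and GstE10 at 6.13 in those tracheal cells, so these members and Uro were high in the same shallow clusters. The part of PC RNA in their RSC levels was not tested.

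**Figure D2:**
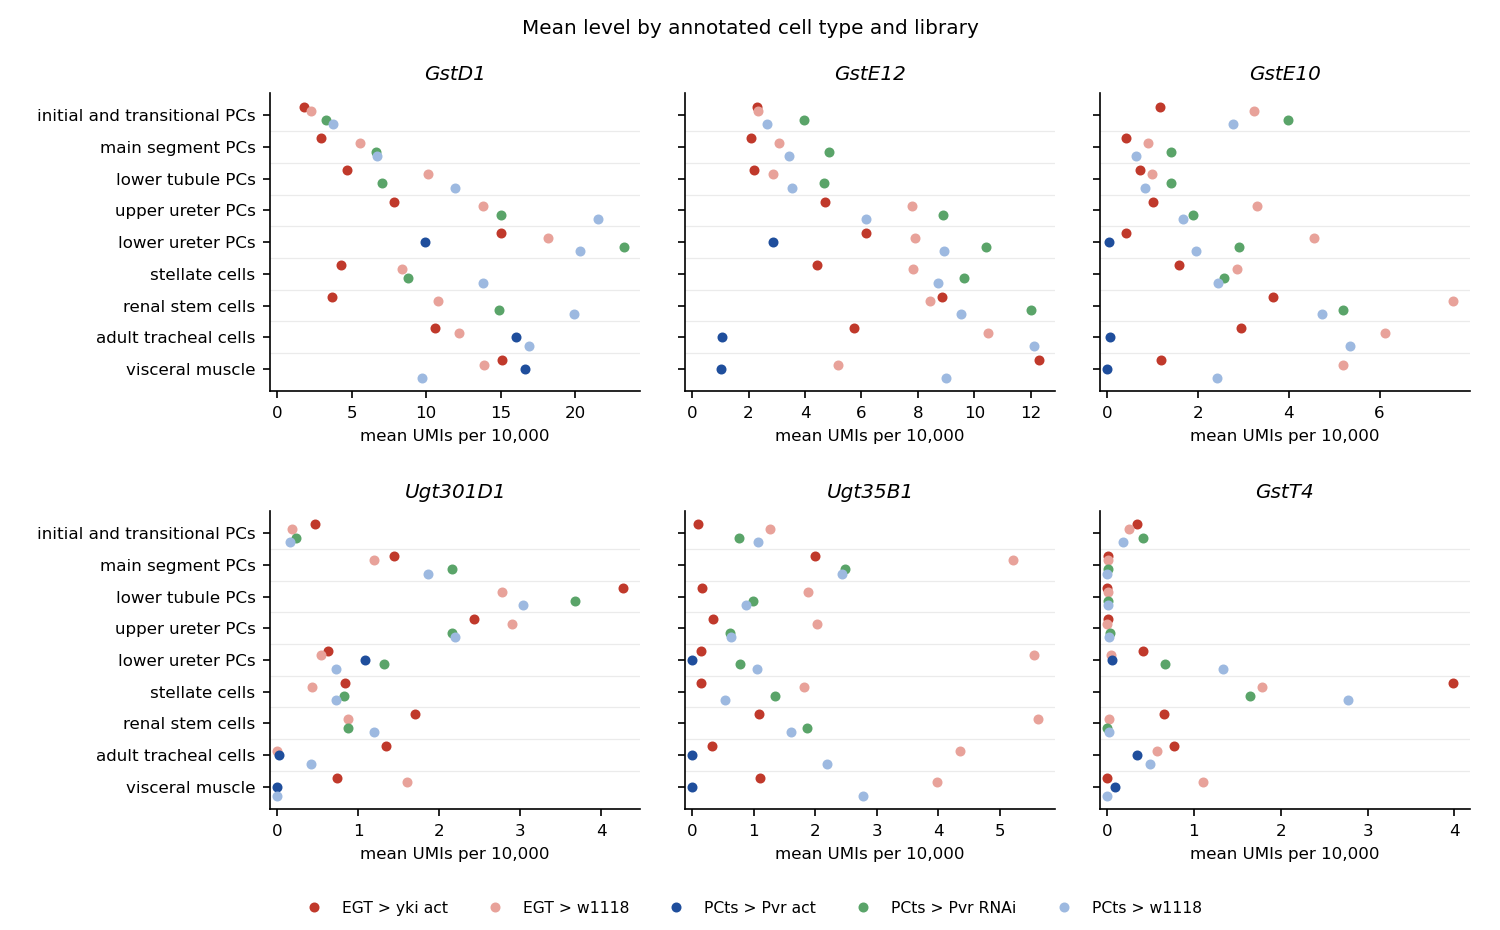
Mean UMIs per 10,000 of 6 members by annotated cell type, with a point for each library that has at least 20 nuclei of that type. GstT4 is higher in stellate cells than in main segment PCs, Ugt301D1 is higher in lower tubule PCs than in initial and transitional PCs, and GstD1 is higher in ureter PCs than in initial and transitional PCs.

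EGT > yki act was set against EGT > w1118 to describe the MTs of flies with a gut tumor. Over all nuclei 15 members were compared, of which 3 were called lower, beside 9.22% of the 2711 genes compared, and 0 higher, beside 11% of them. The median log2 fold was -0.30 over the members and 0.03 over all genes compared. Ugt35B1 had 818 UMIs (0.554 per 10,000) in EGT > yki act, against 5655 (4.33) in EGT > w1118, a log2 fold of -1.78. The log2 ratio of the pooled counts was -2.90 (-3.01 to -2.80). GstE10 was at 1.44, against 4.76, a log2 fold of -1.24, and Ugt49B1 at 0.774, against 1.84, a log2 fold of -0.68. All 3 were also lower in EGT > yki act than in PCts > w1118. Between the controls, 2 of 18 members were called higher in EGT > w1118, beside 3.85% of all genes compared, and 0 lower, beside 4.86%, and these were Ugt35B1 and GstE10 themselves, with log2 folds of 1.06 and 0.61 for EGT > w1118 over PCts > w1118. The largest fold above 0 among the 15 was that of Ugt301D1, at 1.60, against 1.11, with a log2 fold of 0.30 that was not called.

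Within annotated cell types, GstD1 was lower in EGT > yki act in 10 of 10 MT cell types that had at least 20 nuclei in both libraries, with log2 folds of -1.34 to -0.24. In main segment PCs, GstD1 was at 2.92 in EGT > yki act, against 5.56 in EGT > w1118, a log2 fold of -0.74 and a log2 pooled ratio of -1.0 (-1.15 to -0.86). In lower tubule PCs it was at 4.69, against 10.1, in PCs of the upper ureter at 7.85, against 13.8, and in stellate cells at 4.26, against 8.40. The log2 fold of GstD1 in each of these 10 types was further from 0 than the all-nuclei fold of -0.17. GstE10 was lower in 10 of 10 types and Ugt35B1 in 9 of 10, the exception for Ugt35B1 having a log2 fold of 0.25. Between the controls GstD1 was likewise lower in EGT > w1118 than in PCts > w1118 in 8 of 9 types, so cell type direction alone also separated 2 libraries without a tumor. GstE10 and Ugt35B1 were each higher in EGT > w1118 than in PCts > w1118 in 8 of 9 types. Between these controls GstE10 was called higher in 4 types and lower in 0, and Ugt35B1 higher in 7 and lower in 1.

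In main segment PCs (94 nuclei of EGT > yki act and 544 of EGT > w1118), 11 members were compared, and 4 were called lower, beside 6.28% of all genes compared, and 0 higher, beside 5.96%. Ugt35B1 was at 2 UMIs per 10,000, against 5.21, a log2 fold of -1.05. The class E genes GstE7 (0.825, against 2.25, log2 fold -0.83) and GstE3 (0.656, against 1.86, log2 fold -0.79) lie in 1 array of class E genes, and GstD1 was the remaining one. Against main segment PCs of PCts > w1118, only GstD1 of these 4 was past the fold, as GstE3 and GstE7 were at 0.717 and 0.915 and Ugt35B1 at 2.44 there. In upper ureter PCs (971 nuclei of EGT > yki act and 94 of EGT > w1118) 11 of 18 members were called lower, beside 12.8% of all genes compared, and 0 higher, beside 13.3%. Those 11 were GstD1, GstE1, GstE3, GstE5, GstE7, GstE10, GstE12, GstO3, Ugt35B1, Ugt35C1 and Ugt49B1. In lower tubule PCs 5 of 11 (GstD1, GstE3, GstE7, Ugt35B1 and Ugt49B1) were called lower, beside 10.4%, and 0 higher, beside 8.43%.

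In the remaining MT cell types members were called in both directions, except in initial and transitional PCs, where they were called lower only. In lower ureter PCs (67 nuclei of EGT > yki act and 74 of EGT > w1118) 2 of 18 members (GstD9 and Ugt305A1) were called higher, beside 27% of all genes compared, and 6 lower, beside 18.1%. Ugt305A1 had only 12 UMIs in the whole of EGT > yki act, against 16 in EGT > w1118. In principal cells-like nuclei (661, against 32) 4 of 17 (GstE11, GstE12, GstO3 and Ugt301D1) were called higher, beside 22.4%, and 8 lower, beside 26.1%. Those 8 were GstD1, GstD2 (log2 fold -1.84), GstD5 (-1.36), GstD9, GstE1, GstE10, Ugt35B1 and Ugt37D1. In RSCs (30, against 1592) 2 of 16 (GstD9 and Ugt301D1) were called higher, beside 23.7%, and 7 lower, beside 14.4%. The types called main segment PCs 2, RSC 2 (Pvr-act) and initial and transitional PCs gave smaller or sparser sets. In main segment PCs 2 (325, against 36) 1 of 8 (Ugt301D1) was called higher, beside 17.1%, and 4 lower, beside 16.5%. In RSC 2 (Pvr-act) (27, against 100) 4 of 19 (GstO2, GstT1, GstT2 and Ugt35C1) were called higher, beside 31.9%, and 6 lower, beside 22.4%. In initial and transitional PCs (160, against 176) 0 of 5 were called higher, beside 10.2%, and 2 lower, beside 8.55%. Ugt301D1, not called over all nuclei, had a fold above 0 in 7 of the 8 MT cell types in which it was compared, from -0.19 in PCs of the upper ureter to 1.17 in principal cells-like nuclei, and was called higher in 3 of them. In principal cells-like nuclei it rested on 65 UMIs, against 0, and in RSCs on 5, against 127.

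Stellate cells (124 nuclei of EGT > yki act and 139 of EGT > w1118) had 1 member called higher. GstT4 had 113 UMIs (3.98 per 10,000) in EGT > yki act, against 50 UMIs (1.78) in EGT > w1118, a log2 fold of 0.84 and a log2 pooled ratio of 1.03 (0.54 to 1.54), beside 13.2% of all genes called higher. GstT4 was at 2.77 in stellate cells of PCts > w1118, and the log2 fold over that control, 0.40, was not past the threshold. The members called lower in stellate cells were GstD1, GstE10, GstE12 and Ugt35B1, beside 12.5% of all genes. Ugt35B1 there rested on 5 UMIs, against 43.

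PCts > Pvr act was set against PCts > w1118 to describe MTs whose PCs express the activated receptor. Over all nuclei 18 members were compared, of which 3 were called higher, beside 22.5% of all genes compared, and 7 lower, beside 24.9%. The median log2 fold was -0.41 over the members and 0.01 over all genes compared. Leaving out the cluster with hemocyte markers gave the same 3 and 7 members. Equal weight for each cell type that both libraries hold (lower ureter PCs, tracheal cells and visceral muscle) left GstD2 as the 1 member called higher, beside 32.3% of all genes, and gave 14 called lower, beside 29.7%. The 3 called higher were GstD2, GstD5 and Ugt302C1. The 7 called lower were GstE10, GstE12, GstO3, GstT3, Ugt301D1, Ugt35B1 and Ugt49B1.

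**Figure D3:**
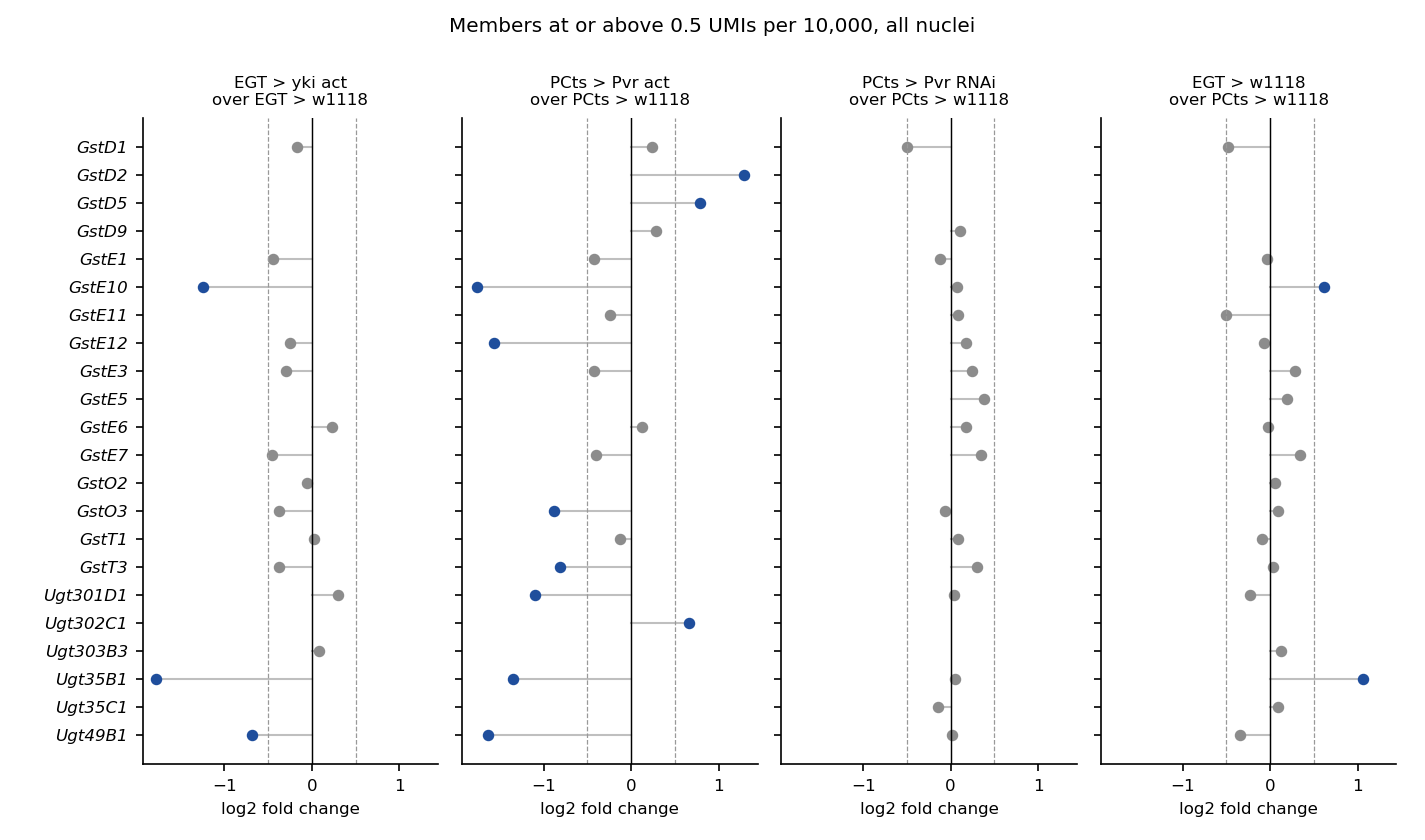
Log2 fold over all nuclei of the 22 members compared in at least 1 of 4 comparisons, with dashed lines at 0.5 and -0.5 and blue points past them. The PCts > Pvr act panel spreads from 1.29 (GstD2) to -1.76 (GstE10), while no member passes the lines for the RNAi-labelled library.

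GstD2, a class D gene next to GstD1 on 3R (12371971–12372704, plus strand), had 7175 UMIs (1.70 per 10,000) in PCts > Pvr act, against 67 (0.104) in PCts > w1118. The log2 fold was 1.29 and the log2 pooled ratio 5.34 (4.99 to 5.71). GstD2 was at 0.0562, 0.242 and 0.0812 in EGT > yki act, EGT > w1118 and the RNAi-labelled library, so over all nuclei PCts > Pvr act stood alone among the 5 libraries. Within principal cells-like nuclei, of which EGT > w1118 had 32, GstD2 had a log2 fold of 1.80 for EGT > w1118 over PCts > w1118. There the log2 fold of EGT > yki act over EGT > w1118 was -1.84. GstD5 had 6461 UMIs (1.21) in PCts > Pvr act, against 276 (0.281) in PCts > w1118, a log2 fold of 0.78 and a log2 pooled ratio of 3.14 (2.97 to 3.32). GstD1 was at 17, against 14.2, a log2 fold of 0.24 that was not called, with a log2 pooled ratio of 0.96 (0.94 to 0.99).

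The GstD genes lie in 1 array of 11 genes on 3R (12364776–12385624), in the order GstD10, GstD9, GstD1, GstD2, GstD3, GstD4, GstD5, GstD6, GstD7, GstD8 and GstD11. In that order they had 1210, 3478, 76296, 7175, 824, 127, 6461, 188, 22, 9 and 25 UMIs in PCts > Pvr act, of 39154127 UMIs in all. In PCts > w1118 they had 74, 463, 14792, 67, 13, 4, 276, 10, 1, 0 and 17 UMIs, of 14781993. The ratio of counts was above that of the library totals for the genes from GstD10 to GstD7, and below it for GstD11, at the end of the array. In the RNAi-labelled library, with 10018765 UMIs, the 11 genes had 59, 536, 8015, 31, 6, 0, 48, 0, 0, 0 and 8 UMIs. GstD2 to GstD5 are close copies of each other, and reads that map to more than 1 gene are not counted by Cell Ranger, so the split among them is uncertain.

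**Figure D4:**
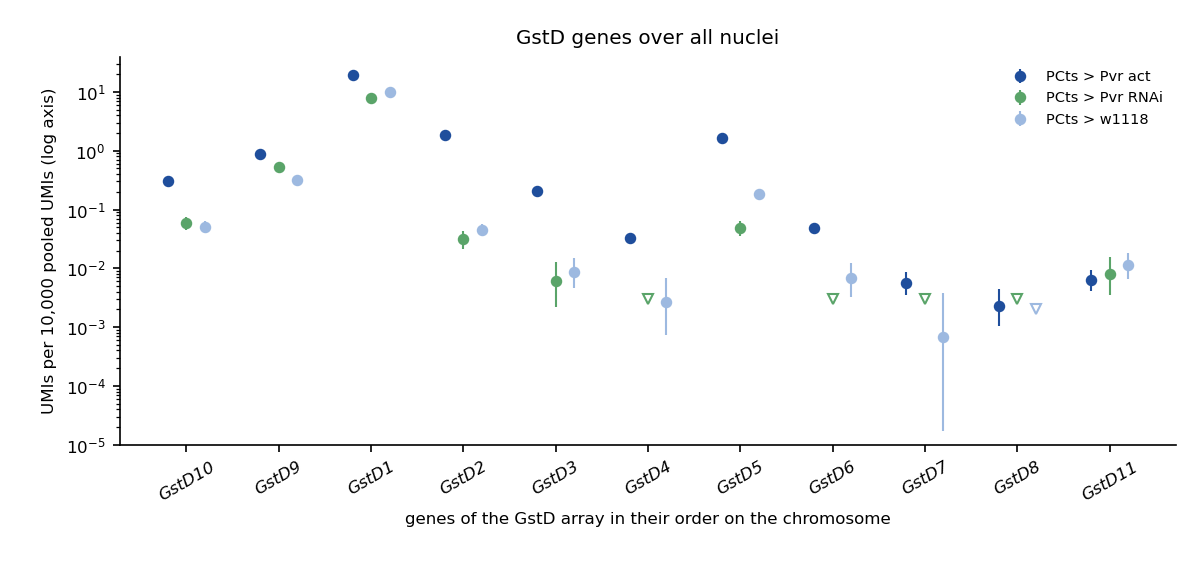
Pooled UMIs per 10,000 UMIs (log axis) of the 11 GstD genes in chromosome order in PCts > Pvr act, the RNAi-labelled library and PCts > w1118, with 95% Poisson bars and open triangles at the floor of 3 UMIs where the count was 0. From GstD10 to GstD7 the PCts > Pvr act points lie above those of PCts > w1118, with the widest gap at GstD2.

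Another array holds 10 UGT genes on 3R between 11126597 and 11177910, and there 1 gene moved against its neighbours. Ugt302C1 (11157098–11159744, plus strand) had 2906 UMIs (0.840 per 10,000) in PCts > Pvr act, against 124 (0.164) in PCts > w1118, a log2 fold of 0.66 and a log2 pooled ratio of 3.15 (2.89 to 3.42). Ugt35B1 (11168503–11170246, minus strand) had 20 UMIs (0.00382) in PCts > Pvr act, against 2588 (1.56), a log2 fold of -1.35 and a log2 pooled ratio of -8.42 (-9.13 to -7.79). The log2 fold of Ugt302C1 was 0.65 to 0.74 in 9 of the other settings tried, but in 5 of those its level fell short of the comparison limit, and the fold was 0.12 when cell types had equal weight. The ratio of Ugt35B1 was the widest ratio of the 18 members compared. Of the genes between and around them, Ugt35C1 had 202 UMIs, against 612, Ugt302K1 had 279 UMIs, against 586, Ugt302E1 64, against 134, Ugt35E1 3, against 186, Ugt35E2 13, against 648, Ugt35A1 100, against 204, Ugt304A1 11, against 109, and Ugt303A1 30, against 249, in PCts > w1118, the library with fewer UMIs in all. Ugt302C1 was thus the only one of these 10 with a higher share of UMIs in PCts > Pvr act. In EGT > yki act it had 358 UMIs, against 65 in EGT > w1118, a log2 pooled ratio of 2.35 (1.96 to 2.75), at a level of 0.311, against 0.101, that was too low to be compared by the fold.

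Outside these arrays, GstE10 was at 0.114 in PCts > Pvr act, against 2.78 in PCts > w1118 (log2 fold -1.76), Ugt49B1 at 0.164, against 2.60 (-1.63), and GstE12 at 1.55, against 6.58 (-1.57). Ugt301D1 was at 0.155, against 1.47 (-1.10), GstO3 at 0.563, against 1.87 (-0.88), and the class T gene GstT3 at 0.126, against 0.973 (-0.81). Not all class E genes were lower. GstE6 was at 0.865, against 0.712, and its log2 pooled ratio was 1.56. GstE1 and GstE11 had log2 folds of -0.42 and -0.24 but log2 pooled ratios of 0.06 and 0.13, so for these the sign turned on whether nuclei or UMIs were weighted equally. The PC markers called lower in the same library are given above, and their part in these values was not tested.

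Lower ureter PCs, tracheal cells and visceral muscle were the only types with 20 nuclei in both PCts > Pvr act and PCts > w1118. In lower ureter PCs (86 nuclei of PCts > Pvr act and 39 of PCts > w1118), 15 of 22 members were called lower, beside 29% of all genes compared, and 0 higher, beside 26.2%. GstD1 was among the lower ones there, at 9.92, against 20.3, opposite to its all-nuclei sign. In tracheal cells 9 of 16 members were called lower, beside 33.6%, and 0 higher, beside 32.6%. There GstE12 was at 1.05, against 12.1, and GstE10 at 0.0598, against 5.35, while Uro was at 0.226, against 15.3. In visceral muscle (26 and 21 nuclei) 12 of 14 members were called lower, beside 43.3%, and 2 higher, beside 37.5%. The 2 were GstD1 (16.6, against 9.73, from 100 UMIs, against 16) and GstD2 (1.74, against 0, from 6 UMIs, against 0). In tracheal cells GstE12, GstE10 and a PC marker were thus lower together in a type that is not a PC, and the marker's part in the all-nuclei values was not tested.

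Clusters of like name were set side by side, although they are different clusters and the comparison rests on their names. In lower tubule PCs (Pvr-act) of PCts > Pvr act (1681 nuclei), GstD1 was at 19.8 UMIs per 10,000, against 11.9 in lower tubule PCs of PCts > w1118 (298 nuclei), a log2 pooled ratio of 1.05 (1.00 to 1.10). GstD2 was at 0.989, against 0.0444, GstD5 at 2.34, against 0.402, and GstE6 at 1.51, against 0.314. Ugt301D1, high in lower tubule PCs of all other libraries, was at 0.109, against 3.03, and Ugt35B1 at 0.00467, against 0.872. In RSC (Pvr-act) nuclei of PCts > Pvr act, GstD2 reached 4.61, against 0.187 in RSCs of PCts > w1118, a log2 pooled ratio of 5.61 (4.83 to 6.52), and GstD1 24.9, against 19.9. Ugt302C1 was at 1.23, against 0.226, Ugt49B1 at 0.118, against 4.19, and GstE12 at 2.35, against 9.54. In RSC 2 (Pvr-act) of PCts > Pvr act (690 nuclei), the Delta-bearing cluster, GstD2 was at 0.788, against 0.187 in those RSCs of PCts > w1118, and GstD5 at 0.581, against 0.278, while GstD1 was at 14.7, against 19.9, opposite in sign to the other pairs. GstE6 differed between the pairs, with a log2 pooled ratio of 2.28 in the lower tubule pair, -0.02 (-0.31 to 0.28) for RSC (Pvr-act) and -1.06 for RSC 2 (Pvr-act). In RSC (Pvr-act), 272 of 2505 nuclei had a UMI of Hml or NimC1, and GstD2 was at 6.23 in these and at 4.41 in the others.

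The Pvr-act clusters also held nuclei of EGT > yki act, so both transgenes could be set side by side within 1 cluster, without a test and across 2 drivers. In RSC (Pvr-act), EGT > yki act (476 nuclei) had GstD2 at 0.0485, against 4.61 in PCts > Pvr act, GstD5 at 0.2, against 2.17, and GstD1 at 14.3, against 24.9. It had Ugt301D1 at 1.12, against 0.0482, GstE10 at 2.24, against 0.268, and GstE12 at 7.12, against 2.35. These EGT > yki act nuclei were shallow, with a median of 470.5 UMIs, against 1745 in PCts > Pvr act. In lower tubule PCs (Pvr-act) the medians were 13627.5 and 5151, and the part of depth was not tested. Lower tubule PCs (Pvr-act) showed the same signs, with GstD1 at 8.77, against 19.8, GstD2 at 0.222, against 0.989, GstD5 at 1.06, against 2.34, and Ugt301D1 at 1.89, against 0.109. These GstD2 and GstD5 levels of EGT > yki act, from 33 and 101 UMIs, lay above those in lower tubule PCs of EGT > w1118 (0.0221 and 0.209). Over all nuclei, 13 members were compared in both, and 10 (76.9%) had the same sign (9 lower in both, 1 higher in both), beside 1674 of 2436 genes of any kind (68.7%).

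For the RNAi-labelled library over PCts > w1118, 17 members were compared over all nuclei and none was called higher, beside 1.42% of all genes compared, or lower, beside 2.87%. GstD1 fell just short of the threshold, at 9.76, against 14.2, a log2 fold of -0.50 and a log2 pooled ratio of -0.32 (-0.36 to -0.28). GstE5 (0.849, against 0.422, log2 fold 0.38) and GstE7 (1.19, against 0.722, log2 fold 0.35) were the members with the largest folds above 0. In main segment PCs (597 nuclei of the RNAi-labelled library and 747 of PCts > w1118), 4 of 13 members were called higher, beside 10.3% of all genes, and 0 lower, beside 5.43%. These were GstE3 (1.74, against 0.717), GstE7 (2.05, against 0.915), Ugt49B1 (1.99, against 1.03) and GstE10 (1.40, against 0.649), with log2 folds of 0.67, 0.67, 0.56 and 0.54. GstE3 and GstE7 were also called higher in main segment PCs of EGT > w1118 over those of PCts > w1118, at 1.86 and 2.25, beside 4.74% of all genes (4.87% lower), so both lay as high in a control library.

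In other cell types of the RNAi-labelled library GstD1 was lower in lower tubule PCs (7.05, against 11.9, log2 fold -0.67), beside 3.24% of all genes called lower and 2.8% higher, and in stellate cells (8.81, against 13.8, log2 fold -0.60), beside 4.46%, and it was at 6.63, against 6.68, in main segment PCs. In RSCs GstE5 and GstT3 were called higher, beside 3.92% of all genes, and 0 of 19 members lower, beside 6.07%. In upper ureter PCs GstE5 was called higher, beside 5.02%, and 0 of 20 lower, beside 9.33%. Ugt35B1 was called higher in stellate cells, beside 3.47%. GstT4, whose highest level among MT cell types was in stellate cells, was called lower there, at 1.65, against 2.77, a log2 fold of -0.51. In lower ureter PCs (33 nuclei of the RNAi-labelled library and 39 of PCts > w1118) 4 of 23 members were called higher, beside 16.3%, and 6 lower, beside 23.1%. These rested on few UMIs, with GstT3 at 19 UMIs, against 3, and GstE1 at 15, against 4. GstE10, GstE12 and GstT3 had folds above 0 in 7 of 7 MT cell types, and were called higher in 1, 0 and 2 of them. For EGT > w1118 over PCts > w1118 these 3 members were above 0 in 8, 1 and 6 of 9 types.

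Genes that supply or share these pathways were described from a list of 23. Of 4 genes of glutathione synthesis 2 were compared, and of 5 thioredoxin and peroxiredoxin genes 3. Of the 4 ABC exporters 2 were compared, but 1 in PCts > Pvr act, and none was called. Mdr49 was too low in level to be compared in PCts > Pvr act, at 0.0655, against 0.908 in PCts > w1118. Its log2 pooled ratio was -4.06 (-4.29 to -3.83). Gclc, the catalytic subunit of the first enzyme of glutathione synthesis, was called higher in EGT > yki act (13.4, against 8.25 in EGT > w1118, log2 fold 0.63) and lower in PCts > Pvr act (3.99, against 10.8 in PCts > w1118, log2 fold -1.24). Over PCts > w1118, the log2 fold of Gclc in EGT > yki act was 0.29, short of the threshold. UGP, which makes UDP-glucose, was called lower in both, at 0.721, against 4.25, in EGT > yki act, and at 0.48, against 3.63, in PCts > Pvr act. The peroxiredoxin Prx2 was called higher in both, with log2 folds of 0.61 in EGT > yki act and 1.09 in PCts > Pvr act. Of the superoxide and peroxide removal genes Sod1, Sod2 and Cat, 3 of 3 were called lower in PCts > Pvr act, Cat at 1.63, against 6.12, and 0 of 3 in EGT > yki act. The membrane GST Mgstl was lower in PCts > Pvr act, at 0.38, against 1.40. Of the regulators, cnc, Keap1 and maf-S were compared and 0 of 3 were called in any genotype comparison. As a mean, cnc was at 8.71 in PCts > Pvr act and 8.81 in PCts > w1118. The log2 pooled ratios in PCts > Pvr act were below 0, at -0.51 (-0.54 to -0.49) for cnc, -1.06 for Keap1 and -0.60 for maf-S. None of the 23 was called for the RNAi-labelled library over all nuclei, whereas Gclm (log2 fold 1.00) and Cat (log2 fold -0.64) were called between the 2 controls.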

How the data were processed

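Nuclei were sorted from pooled tubules and profiled with 10x Genomics 3′ chemistry. The authors counted UMIs with Cell Ranger 7.0.0 against BDGP6, and the deposited values are natural log values, ln(1 + x), of x UMIs in each 10,000 counted from a nucleus, with a library and a cell type for each nucleus. Filters on nuclei and treatment of doublets are not given in the sources used here, and no doublet caller was run. The deposited table holds more nuclei of the EGT libraries than the study's text counts. All values, taken back from the log, were whole multiples of 1 UMI in 100% of nuclei (relative tolerance 1e-06), so counts were recovered. Symbols came from the Ensembl release 115 annotation, which matched 16447 identifiers and left 48 unmatched.

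Levels, folds (pseudocount 1, mean level of both libraries at least 0.5, at least 20 nuclei in both) and exact Poisson and conditional binomial 95% intervals were computed with Python 3.11.15, numpy 2.4.6, scipy 1.17.1 and matplotlib 3.10.9. With 1 library per genotype no p-value across genotypes was computed. Named members had a level of at least 5 in a cell type, were called over all nuclei with the same sign against both controls, or were among the 5 highest or lowest called in a cell type. Other members were named after their values were seen, where they lie beside these in an array or stand apart in 1 cell type. The members and lists were chosen with earlier results of these data known. On counts simulated for main segment PCs of the RNAi-labelled library and PCts > w1118 (2286 genes, 200 of them changed), 200 changed genes had the simulated direction and 95.3% of intervals held the simulated ratio. Counts were drawn from a Poisson model with the same rate in all nuclei of a library, which is what the intervals assume. Spread between nuclei or libraries was not simulated, so this checked the computation only. Alternatives changed the pseudocount, weighting, centring, filter, threshold, control and nuclei used. Promoter motifs and sequences were not analysed here.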

Additional observations from a re-analysis of the deposited data

Results flagged for a closer look

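The class E gene GstE12 had folds on both sides of 0 past the threshold in EGT > yki act over EGT > w1118. Its log2 fold was -0.70 in stellate cells and -0.63 in upper ureter PCs, and 0.97 in the principal cells-like cluster, whose nuclei had medians of 432 to 542 UMIs. Ugt35C1 likewise had log2 folds of -0.63 in PCs of the upper ureter and -0.54 in those of the lower, and 1.32 in RSC 2 (Pvr-act), which held 27 nuclei of EGT > yki act and 100 of EGT > w1118. The differences between these cell types were not tested, since each genotype has 1 library.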

How the results depend on the processing

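No paired analysis was possible because each genotype has 1 library. Under 13 settings, 97 of 118 counts of called members stayed within 1.5 times their value. These 97 include counts of 0 that stayed at 0. They also include settings that left the nuclei of a comparison unchanged, so the figure overstates how far the counts were tested. Signs were checked only for members named by level, or by a call over all nuclei against both controls. This check covered all nuclei, stellate cells, and main segment, lower tubule, upper ureter and initial and transitional PCs. Of 307 called values checked, 305 kept their sign, but a changed pseudocount cannot turn a sign, and some settings left the nuclei unchanged. The 2 that reversed, in stellate cells of the RNAi-labelled library set against EGT > w1118, were GstD1 (0.06) and Ugt35B1 (-0.27). GstE3 and GstE7 were outside this check, and in main segment PCs of the RNAi-labelled library both lay below their levels in EGT > w1118. For EGT > yki act over all nuclei the members lower numbered 7 with a pseudocount of 0.1 (beside 16% of all genes) and 6 with equal weight per cell type (6.12%), and in main segment PCs 8 with a pseudocount of 0.1 (14.4%), 2 against PCts > w1118 (6.36%) and 1 at a log2 threshold of 1 (0.668%). For PCts > Pvr act the members higher numbered 5 with pooled counts (GstD1, GstD9 and GstE6 in place of Ugt302C1 joined GstD2 and GstD5, beside 26.9% of all genes), 5 in nuclei with at least 5000 UMIs (29.2%), 1 with equal weight (32.3%) and 1 at a log2 threshold of 1 (11.3%), and the members lower 14 with equal weight (29.7%). For the RNAi-labelled library over all nuclei the members higher numbered 3 with a pseudocount of 0.1 (3.98%), 1 against EGT > w1118 (4.99%) and 2 in nuclei with at least 5000 UMIs (9.18%). The members lower numbered 2 against EGT > w1118 (5.14%), and 1 each with a pseudocount of 0.1 (8.38%), with MT cell types only (2.99%), with equal weight (2.53%), after dropping the 25% of nuclei poorest in genes (2.68%), and in nuclei with at least 500 UMIs (2.63%). In its main segment PCs 0 were higher at a log2 threshold of 1 (4.09%) and 1 was lower against EGT > w1118 (7.64%). The settings with at least 500 or 5000 UMIs and without the cluster with hemocyte markers, the folds of GstT4 and Gclc in EGT > yki act over PCts > w1118 and the UGT sum without Ugt35B1 were chosen after seeing the data. The causes were not tested. Members under 10 UMIs, and others below the level limit, could not be compared at this depth. Over all nuclei 15 of the 70 members were compared for EGT > yki act, 18 for PCts > Pvr act and 17 for the RNAi-labelled library.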

Other observations

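Ugt302K1, a UGT gene on 3R (11151026–11153849, minus strand), had fewer UMIs in both EGT libraries than in each of the 3 PCts libraries. Its count was 9 UMIs in EGT > yki act and 19 in EGT > w1118. PCts > Pvr act had 279, the RNAi-labelled library 394 and PCts > w1118 586. The log2 pooled ratio of EGT > w1118 over PCts > w1118 was -5.04 (-5.78 to -4.38). Driver, genetic background and library cannot be told apart here.

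Ugt303B3, on the same arm, had 66 UMIs in PCts > Pvr act, against 839 in PCts > w1118, a log2 pooled ratio of -5.07 (-5.46 to -4.71), and 1216 in EGT > yki act, against 1114 in EGT > w1118. Ugt317A1 had 157 UMIs in PCts > Pvr act and 1 to 10 in each of the other 4 libraries, and its log2 pooled ratio over PCts > w1118 was 4.89 (3.01 to 7.95). Both were too low in level to be compared by the fold in PCts > Pvr act over PCts > w1118. Ugt49C1 was at 2.81 UMIs per 10,000 in the 69 fat body nuclei of PCts > Pvr act and at 0.235 in its tracheal cells.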
